A study of Mus musculus with 20 samples.

Results

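The genes described here encode 9 acute-phase and antimicrobial proteins of the mouse: Saa3, Hp, Lcn2, S100a8, S100a9, Slpi, Camp, Lyz1 and Lyz2. They are 9 of the 24421 genes in the count tables. They were selected on their levels in these same libraries, as CPM (a gene's count divided by the total gene count of its library and scaled to a total of 1000000) across the culture conditions, so that their differences between conditions are a description. Where a difference of a member is said to be called, this only says that it passed the threshold of a fit over all genes, and it is no independent evidence. Macrophages were grown from bone marrow of 5 mice in medium holding conditioned medium of L929 cells as the source of CSF-1, the growth factor that turns marrow cells into macrophages. Cells of each mouse were exposed for 48 h to each of 4 formulations, which gave 20 libraries of poly(A)-enriched RNA, 5 per condition. LP 3M PIC is the dual formulation, LP 3M and LP PIC are the single ones, and LP is the lipoparticle without either adjuvant, as the series title and the labels were read. The sources used here do not state what 3M and PIC stand for, the amounts used, or the strain, sex and age of the mice. All conditions share the particle and the conditioned medium, and no library without a particle was analysed here. The comparisons ask how far each formulation moved these genes away from LP, and how the dual formulation stood against the single ones.

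Acute-phase proteins are plasma proteins whose synthesis changes in inflammation, chiefly in the liver under interleukin-6 and interleukin-1. Macrophages and neutrophils make some of them locally, together with proteins that bind iron or zinc, block proteases or attack bacterial walls. Factors of the NF-kB, C/EBP and STAT families are known to drive many of these genes.

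Depth ran from 9740528 to 23874805 gene counts per library, with LP 3M PIC of mouse 3 at 12542569, LP of mouse 2 at 9740528 and the other 18 libraries at 17357716 or more. A count of 0 allows up to 3 counts, which is 0.126 to 0.308 CPM depending on the library. All 10 macrophage markers were detected in every condition and summed to 6438 to 8941 CPM in LP 3M PIC, 8964 to 12110 CPM in LP 3M, 7071 to 8141 CPM in LP PIC and 6799 to 7661 CPM in LP. Lcn2, S100a8, S100a9 and Camp are also granule or cytosol genes of neutrophils. Of 15 other neutrophil markers 14 were in the tables, all but Ly6g. These 14 summed to 22.3 to 103.5 CPM in LP 3M PIC, 29.7 to 129.8 CPM in LP 3M, 13.9 to 25.2 CPM in LP PIC and 13.3 to 29.4 CPM in LP. Mmp8, with means of 45.5, 71.4, 14.9 and 7.37 CPM in that order of conditions, and Padi4, with 1.57, 4.78, 5.16 and 10.4 CPM, made up most of that sum. Retnlg and Ms4a3 were at 0 counts in every library, and Mpo, Elane, Prtn3, Ctsg, Ltf, Ngp, Cxcr2, Fcnb and Stfa2l1 averaged at most 0.417 CPM in any condition. Cebpe averaged under 1 CPM in each condition. Monocyte markers (5 genes) summed to 2.47 to 4.87 CPM in LP 3M PIC, 4.63 to 49.3 CPM in LP 3M, 1.68 to 22.7 CPM in LP PIC and 21.7 to 101.4 CPM in LP. Nearly all of this was Cx3cr1 (means of 2.16, 24.8, 6.83 and 61.3 CPM), and Ly6c2, Ccr2 and F13a1 averaged at most 0.761 CPM in any condition. Dendritic cell markers (7 genes) summed to 6.24 to 46.3 CPM in LP 3M PIC, 0.305 to 0.838 CPM in LP 3M, 1.33 to 7.10 CPM in LP PIC and 0.0420 to 0.392 CPM in LP. In LP 3M PIC and LP PIC most of this was Ccr7 (means of 24.8 and 2.49 CPM), and Flt3, Zbtb46, Xcr1, Clec9a, Siglech and Dpp4 averaged at most 0.379 CPM in any condition. The part of other cells in the results was not tested. In these bulk libraries, fewer cells of a type and less RNA per cell cannot be told apart.

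Promoter sequences are shown for the serum amyloid and lipocalin genes, whose levels moved furthest, and for S100a8 and S100a9, neighbours 22596 bp apart on chromosome 3 that moved differently. RefSeq's table for GRCm38.p6 held 8 of the 9 promoters, all but that of Hp, as 250 bases before and 50 after the gene's start, printed 5′ to 3′ on the gene's strand. Capitals mark matches, on either strand, to the C/EBP motif TTGCNNAA or to the TATA box TATAAA. The Saa3 window is chr7:46715627-46715926 (minus strand), that of Lcn2 chr2:32387690-32387989 (minus strand), that of S100a8 chr3:90668821-90669120 (plus strand) and that of S100a9 chr3:90695672-90695971 (minus strand).
Saa3 promoter: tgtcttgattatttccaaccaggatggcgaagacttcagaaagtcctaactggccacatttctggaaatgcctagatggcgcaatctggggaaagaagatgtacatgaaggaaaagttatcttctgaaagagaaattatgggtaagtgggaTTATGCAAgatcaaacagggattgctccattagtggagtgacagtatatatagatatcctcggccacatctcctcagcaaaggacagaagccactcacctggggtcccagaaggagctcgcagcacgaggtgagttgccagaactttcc
Lcn2 promoter: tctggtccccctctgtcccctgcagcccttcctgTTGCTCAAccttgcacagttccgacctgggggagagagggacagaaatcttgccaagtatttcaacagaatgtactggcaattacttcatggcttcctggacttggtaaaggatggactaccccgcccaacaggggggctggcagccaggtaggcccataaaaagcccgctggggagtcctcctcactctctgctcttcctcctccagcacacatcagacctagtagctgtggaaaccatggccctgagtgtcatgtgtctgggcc
S100a8 promoter: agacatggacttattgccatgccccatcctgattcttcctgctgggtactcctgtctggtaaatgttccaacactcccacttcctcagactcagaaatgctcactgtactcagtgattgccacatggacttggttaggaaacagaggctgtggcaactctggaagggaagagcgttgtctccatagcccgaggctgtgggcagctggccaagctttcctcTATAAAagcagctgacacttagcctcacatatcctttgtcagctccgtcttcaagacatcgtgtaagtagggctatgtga
S100a9 promoter: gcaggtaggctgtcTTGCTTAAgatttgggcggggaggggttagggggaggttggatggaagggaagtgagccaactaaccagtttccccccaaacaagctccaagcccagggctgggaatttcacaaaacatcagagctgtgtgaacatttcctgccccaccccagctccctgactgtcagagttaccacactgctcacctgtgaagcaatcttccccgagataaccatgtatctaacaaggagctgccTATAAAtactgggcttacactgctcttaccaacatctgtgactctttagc
The C/EBP motif lay at −99 to −92 in Saa3, −216 to −209 in Lcn2 and −236 to −229 in S100a9, counted from the start site, and was not in the S100a8 window. It was also in the windows of Slpi and Lyz1, so that 5 of 8 members held it, against 10.8% of 32851 promoters of the same length. The TATA box stood at −30 to −25 in S100a8 and at 1 to 6 in S100a9, and occurred in 13.6% of all promoters. The STAT palindrome TTCNNNGAA (8.30% of all promoters), the AP-1 motif TGANTCA (7.81%) and the NF-kB consensus (4.51%) had no match in any of the 8 windows. A match is a description of letters in these windows and not a measured binding site.

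Saa3 encodes serum amyloid A3, an acute-phase apolipoprotein that mouse macrophages and fat cells make outside the liver (chr7:46711998-46715700, GRCm38, minus strand). Its level was 21043, 30662, 5292, 13117 and 4260 CPM in mice 1 to 5 under LP 3M PIC, and 9946, 7666, 1372, 2103 and 449 CPM under LP 3M. Under LP PIC it was 2252, 2017, 488, 2019 and 432 CPM, and under LP 13.8, 8.52, 34.2, 19.8 and 14.3 CPM. Every library of the 3 adjuvant formulations lay above every LP library, and in mouse 2 under LP 3M PIC this single gene took 3.07% of all gene counts. Relative to LP the log2 fold change was 9.78 ± 1.07 for LP 3M PIC, 7.99 ± 0.99 for LP 3M and 6.33 ± 0.92 for LP PIC (± SE here and below for log2 changes, n = 5 mice). Within a mouse, the ratio of LP 3M PIC to LP ran from 155 to 3598. LP 3M PIC was also above LP 3M in 5 of 5 mice (2.12- to 9.49-fold in the same mouse), although the groups overlapped and the change of 1.79 ± 0.75 was not called. With the mouse as a block it was called, at 2.03, and also in DESeq2, at 1.79. Here and below, called means that edgeR's quasi-likelihood test gave a p under 0.05 after Benjamini-Hochberg adjustment across the 12132 genes tested. Against LP PIC the dual formulation was 3.45 ± 0.80 higher with no overlap. LP 3M was above LP PIC in 5 of 5 mice (1.04- to 4.42-fold in the same mouse), although the groups overlapped and the change of 1.67 ± 0.75 was called in 2 of 16 alternative settings only. The neighbour Saa1, another serum amyloid A gene 24796 bp away, was too low to be tested: it averaged 2.45 CPM (0.171 to 6.67) in LP 3M PIC, 0.0684 CPM in LP 3M, 0.0692 CPM in LP PIC and 0.00872 CPM in LP. The Saa3 and Saa1 transcripts were 76.8% identical, and 1.78% of the 50-base windows of Saa3 also occurred in Saa1.

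Hp encodes haptoglobin, which binds free haemoglobin for removal by macrophages (chr8:109575128-109579172, minus strand). Under LP 3M PIC it stood at 85.2, 199, 30.8, 47.7 and 40.96 CPM in mice 1 to 5, and under LP 3M at 122, 69.8, 38.3, 35.8 and 47.3 CPM. Under LP PIC it stood at 38.2, 28.6, 40.9, 23.2 and 39.1 CPM, and under LP at 2.02, 1.13, 1.87, 1.04 and 3.66 CPM. The adjuvant formulations were all clear of LP but overlapped one another. The log2 change from LP was 5.45 ± 0.58 in LP 3M PIC, 5.08 ± 0.57 in LP 3M and 4.12 ± 0.56 in LP PIC. LP 3M PIC exceeded LP 3M in 2 of 5 mice and LP PIC in 4 of 5. The excess over LP PIC, 1.34 ± 0.46, was called. It was 0.60 and not called without mouse 2, whose LP 3M PIC library was the highest, and 1.37 and not called without mouse 4. The call was also lost in limma-voom (1.02), with the 2 conditions alone (1.33) and with no filter on low counts (1.31), and held in 11 of 16 alternative settings.

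**Figure D1:**
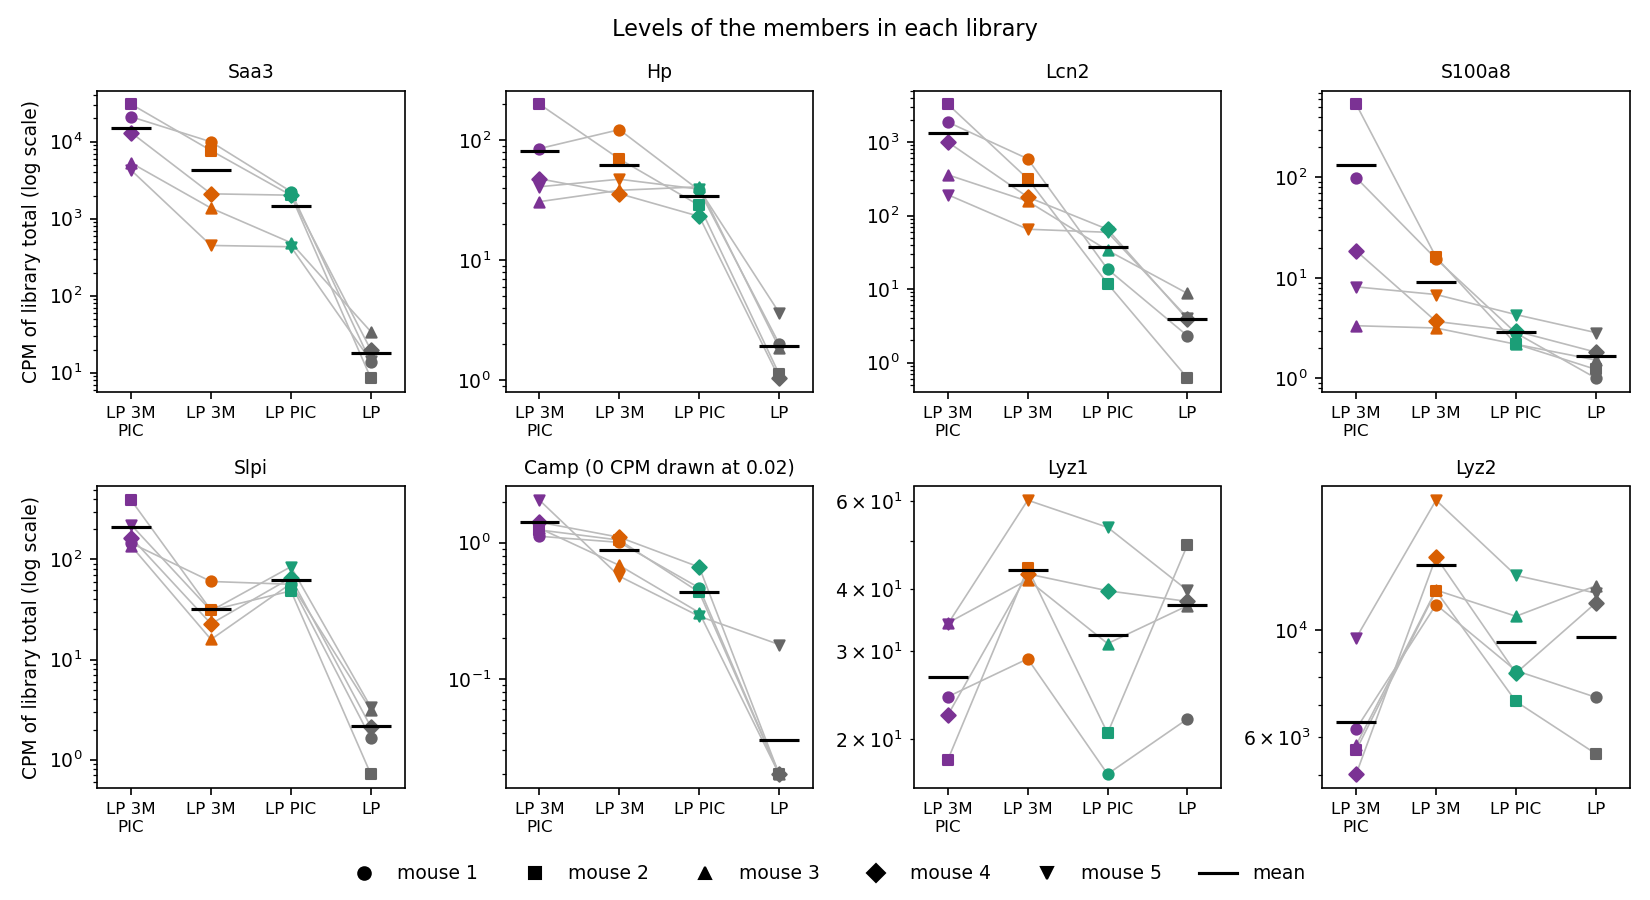
Level of 8 members in each library, in CPM on a log scale. Symbols are mice, grey lines join the libraries of a mouse and black bars are means over 5 mice; S100a9, near 0 throughout, is left out. Saa3, Hp, Lcn2, Slpi and Camp lie above LP in every library with an adjuvant, while Lyz1 overlaps in all conditions and Lyz2 in LP 3M PIC lies wholly below LP 3M.

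Lcn2 encodes lipocalin 2, which captures the siderophores that bacteria use to gather iron (chr2:32384633-32388252, minus strand). It reached 1869, 3273, 358, 1000.0 and 192 CPM in mice 1 to 5 under LP 3M PIC, and 592, 316, 157, 179 and 65.2 CPM under LP 3M. It reached 18.7, 11.8, 33.6, 65.1 and 59.2 CPM under LP PIC, and 2.31, 0.616, 8.72, 3.87 and 4.07 CPM under LP. Each adjuvant formulation was clear of LP, and LP 3M PIC was clear of LP PIC, while LP 3M PIC and LP 3M overlapped. LP 3M and LP PIC nearly met, at 65.2 CPM in the lowest LP 3M library and 65.1 CPM in the highest LP PIC library. The log2 change from LP was 8.47 ± 1.00 in LP 3M PIC, 6.11 ± 0.91 in LP 3M and 3.24 ± 0.82 in LP PIC. The dual formulation was higher than LP 3M in 5 of 5 mice, by 2.29- to 10.4-fold (2.36 ± 0.75, called). That call was lost without mouse 2 (1.78) and without mouse 4 (2.36). LP 3M was higher than LP PIC in 5 of 5 mice (2.87 ± 0.77, called), with a ratio of 1.10 in the mouse with the smallest difference. Without mouse 1 that difference was 2.13 and not called.

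S100a8 and S100a9 encode the subunits of calprotectin, a calcium-binding pair that withholds zinc and manganese from microbes and is abundant in neutrophils. S100a8 (chr3:90668978-90670035, plus strand) had 99.5, 536, 3.35, 18.6 and 8.16 CPM in mice 1 to 5 under LP 3M PIC, and 15.5, 16.1, 3.18, 3.70 and 6.85 CPM under LP 3M. It had 2.83, 2.20, 2.19, 2.96 and 4.32 CPM under LP PIC, and 1.01, 1.23, 1.53, 1.83 and 2.86 CPM under LP. Mice 1 and 2 under LP 3M PIC stood apart, and the highest library of that condition was 160 times the lowest. The mean of 133 ± 229 CPM in LP 3M PIC (SD, n = 5) was 32.4 CPM without mouse 2. LP 3M PIC was above LP in 5 of 5 mice without overlap, by 2.20- to 435-fold in the same mouse. The log2 change from LP was 6.40 ± 1.17 and called, and it was 4.29 without mouse 2 and 4.50, not called, under limma-voom. Changes from LP of 2.51 ± 1.10 in LP 3M and 0.77 ± 1.18 in LP PIC were not called, although each was positive in 5 of 5 mice. With other settings the first was called in 3 of 16 and the second in 1 of 16. LP 3M PIC exceeded LP 3M by 3.90 ± 0.99, or 2.16 without mouse 2, and LP PIC by 5.63 ± 1.10, or 3.49 without mouse 2. Both differences were called in edgeR and not in limma-voom, and the groups overlapped.

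S100a9, the partner subunit (chr3:90692632-90695721, minus strand), stayed at the edge of detection. Its counts in mice 1 to 5 were 6, 0, 1, 0 and 4 under LP 3M PIC, and 0, 0, 3, 0 and 6 under LP 3M. They were 2, 0, 6, 19 and 5 under LP PIC, and 1, 0, 3, 0 and 6 under LP. The gene did not pass the filter on low counts and was not tested. Summed over 5 libraries, LP 3M PIC held 11 counts and LP held 10, a ratio of 1.12 after scaling for depth with an exact 95% counting interval of 0.432 to 2.94. LP PIC held 32 counts, a ratio of 2.97 (1.43 to 6.78), of which 19 came from mouse 4. These intervals cover counting error only. In mouse 2 under LP 3M PIC, where S100a8 was highest with 12539 counts, S100a9 had 0 counts.

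Slpi encodes the secretory leukocyte protease inhibitor, which blocks neutrophil elastase (chr2:164354070-164389095, minus strand). Its levels were 146, 391, 137, 165 and 222 CPM in mice 1 to 5 under LP 3M PIC, and 60.3, 31.1, 15.9, 22.8 and 30.7 CPM under LP 3M. They were 56.5, 48.5, 57.6, 65.6 and 84.7 CPM under LP PIC, and 1.64, 0.719, 3.14, 2.13 and 3.35 CPM under LP. LP 3M PIC did not overlap with any other condition, and no library of LP reached any of the others. The log2 change from LP was 6.63 ± 0.46 in LP 3M PIC, 3.91 ± 0.42 in LP 3M and 4.79 ± 0.43 in LP PIC. Slpi was the tested member whose LP 3M level lay below its LP PIC level, in 4 of 5 mice and by −0.89 ± 0.35. That difference was called in 11 of 16 alternative settings and was lost without mouse 3 (−0.76), mouse 4 (−0.78) or mouse 5 (−0.73). LP 3M PIC exceeded LP 3M by 2.72 ± 0.36 and LP PIC by 1.83 ± 0.35, both in 5 of 5 mice.

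Camp encodes the cathelicidin precursor, from which an antimicrobial peptide is cut (chr9:109847379-109849617, minus strand). It was rare: the counts in mice 1 to 5 were 24, 29, 16, 27 and 48 under LP 3M PIC, and 24, 23, 15, 24 and 13 under LP 3M. They were 11, 10, 7, 15 and 5 under LP PIC, and 0, 0, 0, 0 and 4 under LP. Every library with an adjuvant held more counts than the 4 of mouse 5 under LP. Relative to LP, and scaled for depth, LP 3M PIC was 36.7-fold higher (exact 95% counting interval 14.01 to 136), LP 3M 22.4-fold (8.46 to 83.6) and LP PIC 11.1-fold (4.08 to 42.6). Such an interval covers counting error only and not the spread between mice, and all 4 counts of LP came from mouse 5. The fitted log2 changes of 5.09, 4.40 and 3.33 became 7.79, 7.39 and 6.29 without mouse 5, because LP then held no count, so that they set no bound. Between formulations, LP 3M PIC averaged 1.42 ± 0.37 CPM, LP 3M 0.879 ± 0.238 CPM and LP PIC 0.431 ± 0.150 CPM (SD, n = 5). LP 3M PIC was above LP 3M and above LP PIC in 5 of 5 mice with no overlap, and the difference from LP PIC, 1.76 ± 0.40, was called. The difference from LP 3M, 0.69 ± 0.37, was not called, nor was it in any of 15 alternative settings. There the groups nearly met: the lowest LP 3M PIC library had 1.11 CPM and the highest LP 3M library 1.10 CPM, with 24 counts each. LP 3M was above LP PIC in 5 of 5 mice (1.07 ± 0.41, called), a call lost without mouse 1 (1.04), 2 (0.99), 3 (1.04) or 4 (1.18).

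Lysozyme cuts the peptidoglycan of bacterial walls. Lyz2 encodes the form of mouse macrophages and neutrophils (chr10:117277331-117282321, minus strand), and Lyz1, 5475 bp away, the form of Paneth cells (chr10:117287797-117292868, minus strand). Lyz2 stood at 6243, 5638, 5777, 5029 and 9643 CPM in mice 1 to 5 under LP 3M PIC, and 11311, 12081, 12127, 14199 and 18640 CPM under LP 3M. It stood at 8248, 7117, 10699, 8149 and 13010 CPM under LP PIC, and 7262, 5543, 12378, 11403 and 11953 CPM under LP. It was thus high in every library, and LP 3M PIC lay wholly below LP 3M. The difference between these 2 conditions was −1.08 ± 0.23, with ratios of 0.354 to 0.552 in the same mouse, and it was called in all 16 alternative settings. Against LP, the change was −0.49 ± 0.23 in LP 3M PIC, 0.59 ± 0.23 in LP 3M and −0.00 ± 0.23 in LP PIC. The change in LP 3M was called, but in 4 of 16 alternative settings only, and not without mouse 1, 2, 4 or 5 (0.48 to 0.63). That in LP 3M PIC was called in 5 of 16, among them with the mouse as a block (−0.46) and without mouse 2 (−0.60) or mouse 5 (−0.58). LP 3M PIC was below LP PIC in 5 of 5 mice (−0.48 ± 0.23), a difference called with the mouse as a block (−0.47). LP 3M exceeded LP PIC by 0.59 ± 0.23 in 5 of 5 mice, called in 9 of 16 alternative settings and lost without mouse 1, 2, 3 or 4 (0.52 to 0.67).

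Lyz1 stood at 24.3, 18.2, 34.2, 22.3 and 34.0 CPM under LP 3M PIC, and 29.0, 44.0, 41.8, 42.9 and 60.3 CPM under LP 3M. It stood at 17.0, 20.6, 31.1, 39.7 and 53.2 CPM under LP PIC, and 21.95, 49.1, 37.0, 37.8 and 39.8 CPM under LP. All 4 conditions overlapped. LP 3M PIC was below LP 3M in 5 of 5 mice (−0.71 ± 0.28), called in 9 of 16 alternative settings and lost without mouse 2 (−0.60), 3 (−0.82), 4 (−0.66) or 5 (−0.67). LP 3M was above LP PIC in 5 of 5 mice (0.49 ± 0.28), called with the mouse as a block (0.54). The Lyz1 and Lyz2 transcripts were 95.96% identical over 1262 aligned bases, and 16.1% of the 50-base windows of Lyz1 also occurred in Lyz2. How reads that fit both genes were counted is not given in the sources used here, so that the Lyz1 values are uncertain.

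The order of the members changed with the formulation. Levels of different genes are set side by side here as mean CPM per kb of the first-listed transcript. In LP 3M PIC, Saa3 led with 26800, followed by Lyz2 with 4913, Lcn2 with 1463, S100a8 with 274, Slpi with 242, Hp with 60.1, Lyz1 with 21.1, Camp with 1.87 and S100a9 with 0.207. In LP, Lyz2 led with 7377, followed by Saa3 with 32.6 and Lyz1 with 29.4, while Lcn2 (4.28), S100a8 (3.48), Slpi (2.51) and Hp (1.45) were close together and Camp (0.0472) and S100a9 (0.172) close to the floor. In LP 3M, Saa3 (7761) stood below Lyz2 (10390) with overlapping ranges, and in LP PIC it stood below (2597 against 7177) with no overlap. The spread between mice was wide at the top: in LP 3M PIC, the SD of Saa3 was 11123 CPM around a mean of 14875 CPM. Per kb, the range of Lcn2 in LP 3M PIC overlapped those of S100a8 and Slpi. The range of S100a8 also overlapped those of Slpi, Hp and Lyz1, and the range of Hp that of Lyz1. The place of S100a8 rested on mouse 2, without which its mean was 32.4 CPM, against 133 CPM with it. In LP, the ranges of Saa3 and Lyz1 overlapped, as did those of Lcn2, S100a8, Slpi and Hp. With the summed length of all annotated exons in place of 1 transcript, Saa3 in LP 3M PIC stood at 5708 per kb, against 4913 for Lyz2, with overlapping ranges. In LP that length turned the order of Saa3 and Lyz1, with 6.95 for Saa3 and 29.4 for Lyz1 and no overlap. It also placed Lcn2 below S100a8 and Slpi in LP (1.49, 2.44 and 1.86), with overlapping ranges. Taken over all 9 members, the summed level was 11630 to 40720 CPM in LP 3M PIC, 13760 to 22080 CPM in LP 3M, 9245 to 13680 CPM in LP PIC and 5604 to 12460 CPM in LP.

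Of the 8 members that passed the filter, 6 were called higher in LP 3M PIC than in LP, where 31.7% of all tested genes were called higher and 30.6% lower. In LP 3M 6 were called higher than in LP (20.0% of all genes higher, 19.5% lower), among them Lyz2 and not S100a8, and in LP PIC 5 (22.7% higher, 22.7% lower). LP 3M PIC was called higher than LP 3M for Lcn2, S100a8 and Slpi and lower for Lyz1 and Lyz2 (20.5% of all genes higher, 21.0% lower). Against LP PIC it was called higher for 6 members, all but Lyz1 and Lyz2 (23.1% higher, 21.4% lower). LP 3M was called higher than LP PIC for Lcn2, Camp and Lyz2 and lower for Slpi (24.4% higher, 22.7% lower). Since the members were chosen by these levels, and since genes low in LP pass the filter only where another condition is high, nothing is read from these counts. The comparisons against LP share the same 5 LP libraries.

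**Figure D2:**
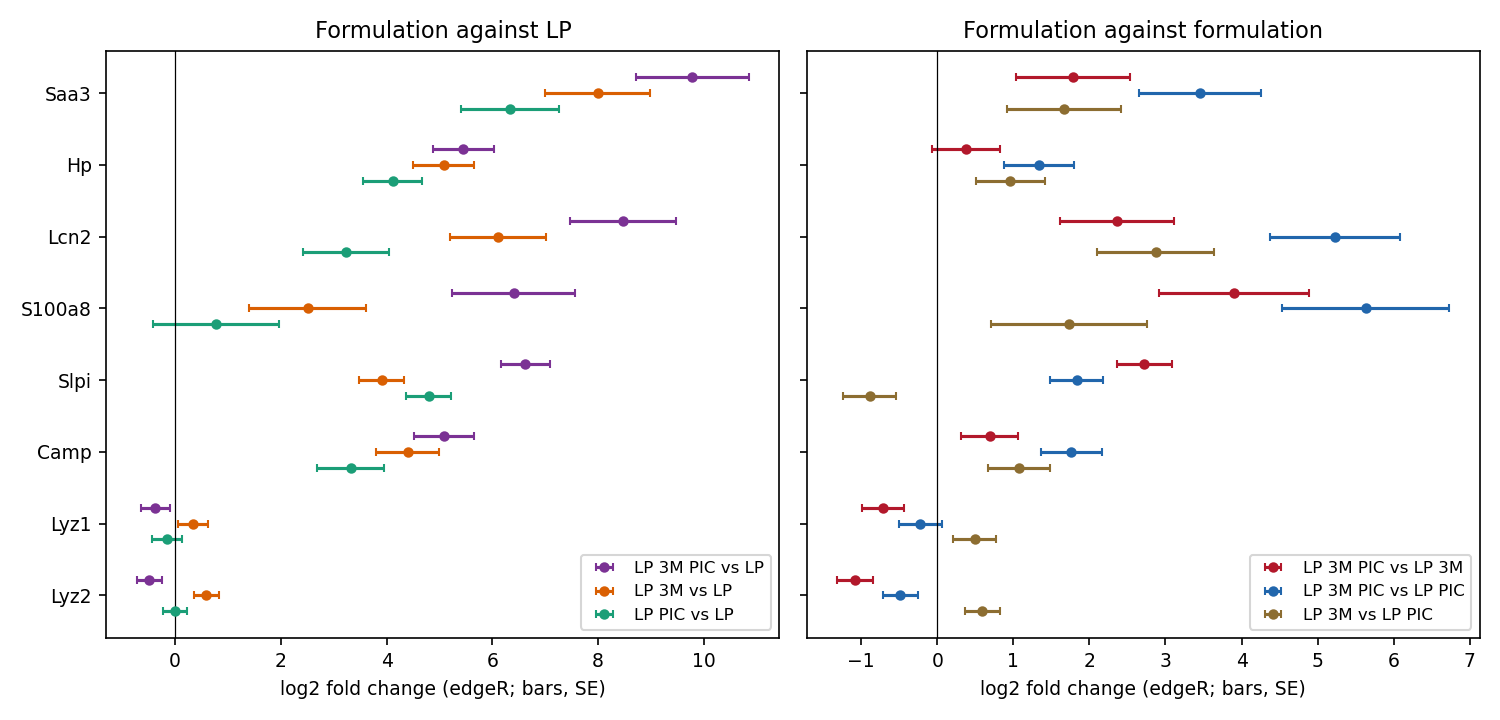
Log2 fold changes of the 8 tested members, each formulation against LP (left) and formulations against one another (right). Points are edgeR estimates over 5 mice per condition and bars their SE. Saa3 and Lcn2 lie furthest to the right on the left panel at 9.78 and 8.47 for LP 3M PIC, and Slpi is the member with a negative change of LP 3M against LP PIC that exceeds its SE, at −0.89.

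The dual formulation was set against the sum of the single ones within each mouse, as its CPM divided by the CPM of LP 3M plus LP PIC minus LP. This assumes equal amounts of each adjuvant in the single and the dual formulation, which the sources used here do not state. The ratio was above 1 in 5 of 5 mice for Saa3 (median 3.17, range 1.73 to 4.92), Lcn2 (3.07, 1.60 to 10) and Slpi (1.95, 1.26 to 4.96). For S100a8 it was above 1 in 3 of 5 mice (3.86, 0.872 to 31.4). Camp (0.840, 0.757 to 3.03) and Lyz1 (0.955, 0.461 to 1.17) exceeded 1 in 2 mice, Hp (0.537, 0.398 to 2.05) in 1 mouse and Lyz2 (0.490, 0.413 to 0.553) in none. The members thus fell on both sides of the sum.

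A level above the sum of the single formulations can still lie below the product of their folds, which is a different question. On the log2 scale that question is the interaction, the step from LP 3M to LP 3M PIC minus the step from LP to LP PIC, where a negative value means that the dual formulation gave less than the product of the single folds. It was −4.54 ± 1.09 for Saa3, −3.74 ± 0.71 for Hp, −2.64 ± 0.75 for Camp, −2.07 ± 0.53 for Slpi and −1.08 ± 0.33 for Lyz2, and all 5 were called (3.82% of all genes were called higher and 4.62% lower). Lcn2, at −0.88 ± 1.05, Lyz1, at −0.56 ± 0.39, and S100a8, at 3.12 ± 1.52, were not called. Nothing further is read from these calls, since the rule used the same levels. The interaction of Hp was called in all 15 alternative settings. That of Saa3 was lost without mouse 1 (−3.80), 2 (−4.38) or 4 (−4.52), and that of Slpi without mouse 1 (−1.52), 4 (−2.04) or 5 (−2.14) and in limma-voom. That of Camp was lost without mouse 1, 2, 3 or 4 (−2.01 to −2.47) and was −5.89 without mouse 5, and that of Lyz2 was called in 6 of 15 and lost without mouse 1, 2, 3 or 4 (−1.02 to −1.14).

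**Figure D3:**
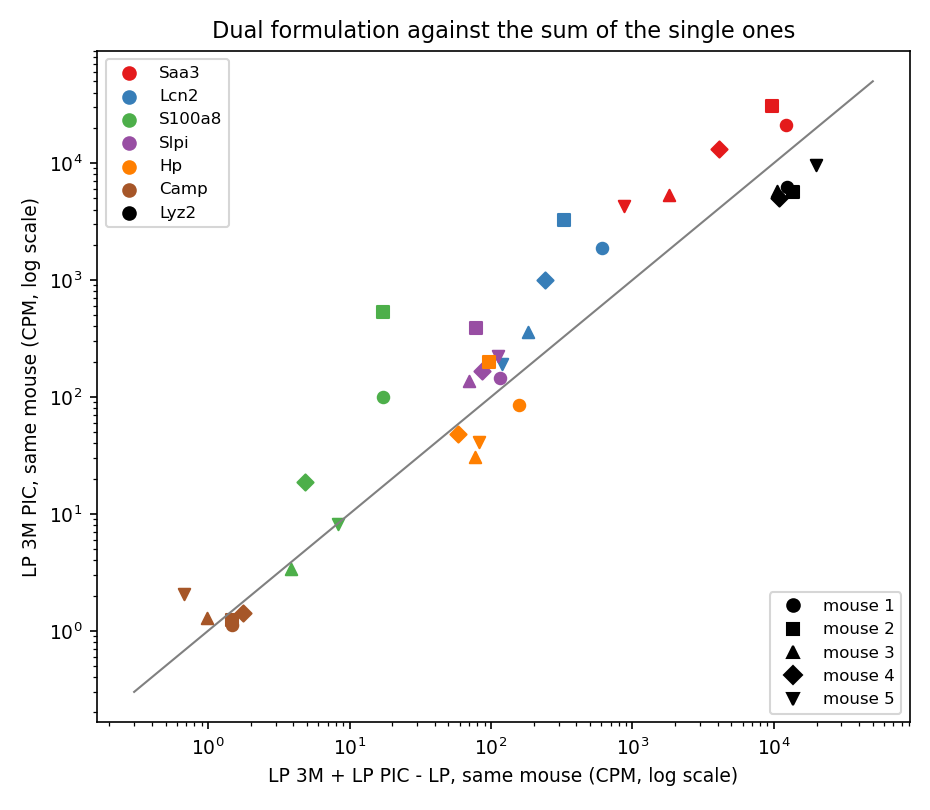
Level in LP 3M PIC against the sum of LP 3M and LP PIC minus LP in the same mouse, both in CPM on log scales. Colours are members, symbols are mice and the line marks equality. All 5 points of Saa3, Lcn2 and Slpi lie above the line and all 5 of Lyz2 below it, at ratios of 0.413 to 0.553.

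The mice differed in how strongly these genes were expressed, and their order was partly shared between genes. In LP 3M PIC, mouse 2 was highest for Saa3, Lcn2, S100a8, Hp and Slpi. Mouse 1 came next for the first 4 of these, mouse 5 was lowest for Saa3 and Lcn2, and mouse 3 was lowest for S100a8, Hp and Slpi. In LP 3M, mice 1 and 2 held the highest levels for the same 5 genes, and mouse 5 again the lowest for Saa3 and Lcn2. In LP PIC, Saa3 was again highest in mouse 1 and lowest in mouse 5, while Lcn2 was lowest in mouse 2. In LP, Saa3 was highest in mouse 3, and Lcn2 and Saa3 were lowest in mouse 2. Lyz2 was highest in mouse 5 in LP 3M PIC, LP 3M and LP PIC, the opposite end to Saa3 in these conditions. The highest library exceeded the lowest by 7.20-fold for Saa3 in LP 3M PIC and 22.1-fold in LP 3M, and by 1.92-fold and 1.65-fold for Lyz2. The labels tie each number to 1 animal, so the 4 libraries of a mouse share that animal, and what set the order of the mice was not tested. The animal codes in the titles are alike for mice 1 and 2, and for mice 3 and 4. What the codes mean is not stated, so a grouping of the mice and the single animals cannot be told apart.

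**Figure D4:**
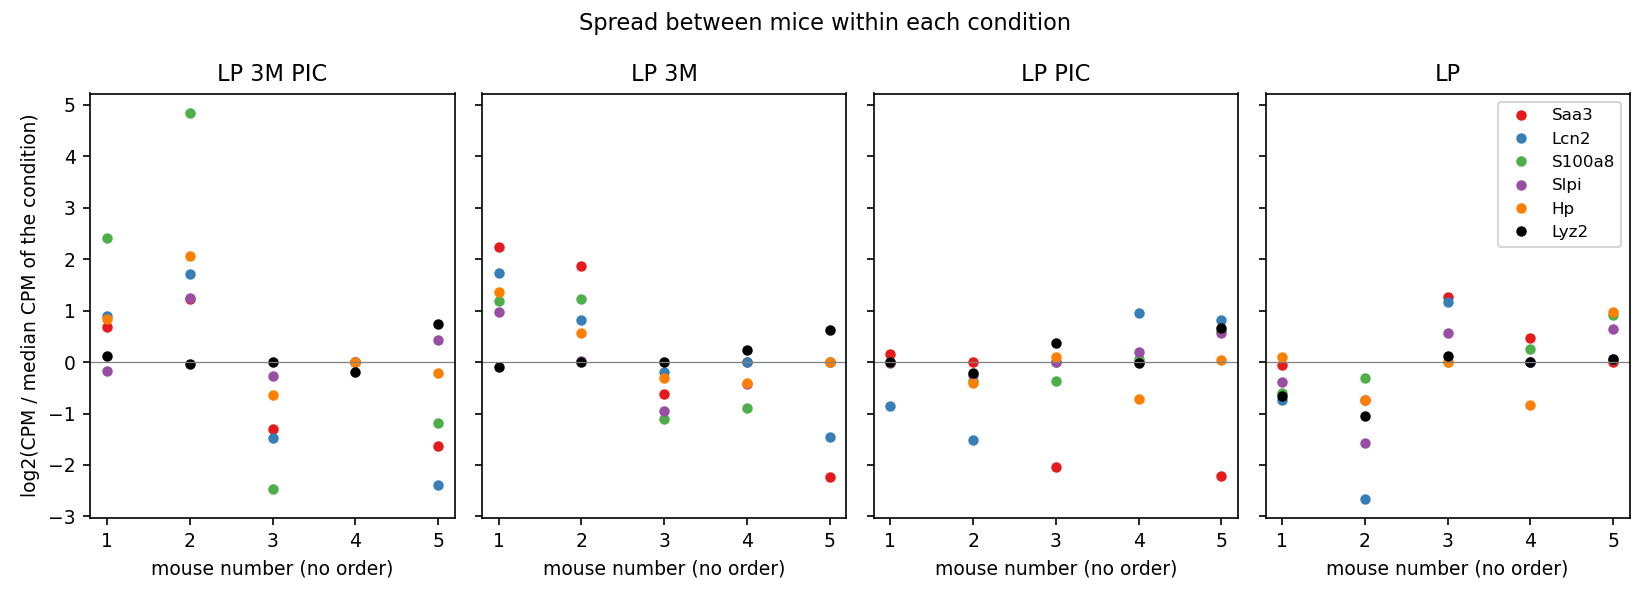
Level of 6 members in each mouse relative to the median of the condition, as log2 of the ratio; mouse numbers have no order. Mouse 2 lies at or above the median for all genes shown but Lyz2 in LP 3M PIC, and mouse 5 lies lowest for Saa3 and Lcn2 in LP 3M PIC and LP 3M while highest for Lyz2.

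Across the 20 libraries, Saa3 varied most closely with Hp (Pearson r = 0.932 of log2 CPM), Camp (0.929) and Lcn2 (0.928), and Lyz1 with Lyz2 (0.634), while Lyz2 had r between −0.200 and 0.0603 with the other 6 tested members. Of 12124 tested genes outside the members, those most like Saa3 were Birc3, an inhibitor of apoptosis (r = 0.987), Cd38, an NAD-consuming ectoenzyme (0.985), and Bcl3, a nuclear IkB protein (0.985). Cd38 averaged 187 CPM in LP 3M PIC, 35.9 CPM in LP 3M, 6.75 CPM in LP PIC and 0.0858 CPM in LP. Those most like Lcn2 were March1, a ubiquitin ligase (0.978), the TNF receptor gene Tnfrsf1b (0.977) and Vav1 (0.975). Those most like S100a8 were Pfkfb3, a regulator of glycolysis (0.979), Ppm1h (0.934) and 2010005H15Rik (0.933), the last of which averaged 7.27 CPM in LP 3M PIC, 0.696 CPM in LP 3M, 0.0203 CPM in LP PIC and 0.0168 CPM in LP. Slpi was closest to the mitochondrial carrier gene Slc25a33 (0.975), the peroxiredoxin gene Prdx5 (0.974) and the adenosine receptor gene Adora2b (0.964). Hp was closest to Cd302 (0.962), the membrane metalloproteinase gene Mmp14 (0.959) and Cybb, the catalytic subunit of the phagocyte oxidase (0.952). Lyz2 was closest to Lamtor2 (0.868), Tmem147 (0.843) and Mvb12b (0.841), and Lyz1 to Rpl31-ps12 (0.779), Pcdhgb7 (0.779) and Ftl1 (0.757). These values describe 20 libraries that share conditions, mice and depth.

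Genes of the same families and pathways were compared in the same edgeR fit, with adjusted p over all 12132 genes. The lists, like the members, were drawn up with earlier results of these data known. Of 26 further acute-phase genes 9 were tested, and 6 rose and 1 fell in LP 3M PIC against LP, 4 rose in LP 3M, and 5 rose and 2 fell in LP PIC, with median log2 changes of 2.80, 1.38 and 1.11 (0.02, −0.01 and −0.00 over all genes). Over all genes tested, 31.7% were called higher and 30.6% lower in LP 3M PIC against LP, 20.0% and 19.5% in LP 3M, and 22.7% and 22.7% in LP PIC, and each list count below is to be set beside these shares. Genes low in LP, such as Cp and Orm2, passed the filter only where another condition was high. This can raise the medians and the counts of higher genes in every list, so that they are a description. Most genes below were named by the size of their change, in lists made with earlier results known. Each adjusted p printed for them here and below is therefore also a description and no independent evidence. Cp, the copper-carrying ferroxidase ceruloplasmin, rose to 43.6 CPM in LP 3M PIC (6.62 ± 0.75, adjusted p = 4.69e-07), 20.9 CPM in LP 3M (5.55 ± 0.74, adjusted p = 1.42e-05) and 2.31 CPM in LP PIC (2.33 ± 0.80, adjusted p = 0.0241), against 0.449 CPM in LP. The last of these calls was lost without mouse 1, 3 or 4 and in limma-voom. Orm1, an orosomucoid, behaved otherwise: it averaged 21.2 CPM in LP 3M PIC, 7.15 CPM in LP 3M, 37.9 CPM in LP PIC and 0.860 CPM in LP, and LP 3M was below LP PIC by −2.33 ± 0.38 (adjusted p = 8.62e-05). Its paralog Orm2 averaged 2.12, 0.382, 2.37 and 0.0343 CPM in the same order and was likewise lower in LP 3M than in LP PIC (−2.55 ± 0.46, adjusted p = 1.65e-04). Reads of these near-identical paralogs could be split between them in counting. Mt1, a metallothionein, fell to 61.4 CPM in LP 3M PIC and 73.6 CPM in LP PIC, against 111.5 CPM in LP (−0.75 ± 0.18, adjusted p = 0.00142, and −0.56 ± 0.18, adjusted p = 0.0169). The call for LP PIC was lost without mouse 1 or 4.

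Of 30 further granule and antimicrobial genes 6 were tested. In LP 3M PIC 3 rose and 2 fell against LP, in LP 3M 3 rose and 2 fell, and in LP PIC 1 rose and 1 fell (medians 0.83, 0.74 and 0.55). Mmp9, gelatinase B, averaged 319 CPM in LP 3M PIC (36.7 to 1028), 250 CPM in LP 3M (6.24 to 629), 7.95 CPM in LP PIC and 1.78 CPM in LP. Its rises of 7.62 ± 1.53 in LP 3M PIC (adjusted p = 2.72e-04) and 7.27 ± 1.51 in LP 3M (adjusted p = 9.51e-04) were not called in limma-voom. Over all alternatives the adjusted p ran from 1.20e-10 to 0.071 and from 3.09e-09 to 0.166, the highest in limma-voom. Its change in LP PIC, 2.21 ± 1.36, had adjusted p = 0.199, and over the alternatives 0.0155, with the mouse as a block, to 0.584. Mmp8, neutrophil collagenase, rose by 2.75 ± 0.51 in LP 3M PIC (adjusted p = 1.17e-04) and 3.39 ± 0.52 in LP 3M (adjusted p = 5.23e-05). Rnase4, a secreted ribonuclease, fell to 11 CPM in LP 3M PIC, 36.0 CPM in LP 3M and 38.3 CPM in LP PIC, against 75.8 CPM in LP (−2.66 ± 0.28 in LP 3M PIC, adjusted p = 2.16e-07). Stfa3, a stefin of neutrophils that was too low to be tested, averaged 4.50 CPM in LP 3M PIC (0.0427 to 18.5) and 0.208 CPM in LP 3M, and was at 0 counts in every LP PIC and LP library.

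Of 14 other S100 genes in the list 6 were tested. Against LP, 4 fell in LP 3M PIC, 1 in LP 3M and 2 in LP PIC, and none was called higher (medians −0.57, −0.25 and −0.12). With the mouse as a block S100a1 was called too, higher in LP PIC and lower in the 3M formulations. It averaged 78.1 CPM in LP 3M PIC, 81.0 CPM in LP 3M, 191 CPM in LP PIC and 122 CPM in LP, with changes of −0.56 ± 0.33 (adjusted p = 0.155, and 0.00214 to 0.435 over the alternatives), −0.50 ± 0.33 (adjusted p = 0.248, and 0.0195 to 0.464) and 0.68 ± 0.33 (adjusted p = 0.105, and 0.00409 to 0.208), each lowest with the block. The change in LP PIC was also called with the 2 conditions alone, and that in LP 3M PIC without mouse 5. S100a1 was named after its values were seen. S100a4, a calcium-binding protein linked to cell motility, fell to 74.3 CPM in LP 3M PIC (56.1 to 89.7), 392 CPM in LP 3M (370 to 417) and 213 CPM in LP PIC (134 to 284), against 631 CPM in LP (528 to 802). The log2 changes were −2.97 ± 0.17 (adjusted p = 6.91e-11), −0.58 ± 0.16 (adjusted p = 0.00687, lost without mouse 1) and −1.52 ± 0.16 (adjusted p = 3.34e-07). S100a6 fell in LP 3M PIC (−1.43 ± 0.15, adjusted p = 1.70e-07) and in LP PIC (−0.50 ± 0.15, adjusted p = 0.0105, lost without mouse 1), and S100a10 in LP 3M PIC (−0.58 ± 0.12, adjusted p = 2.23e-04).

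Slpi belongs to the family of WAP domain inhibitors, of which 19 others were listed and 2 tested. Wfdc17 rose to 511 CPM in LP 3M PIC (99.9 to 1163) and 263 CPM in LP 3M (114 to 451), against 53.4 CPM in LP, by 3.38 ± 0.56 (adjusted p = 4.27e-05) and 2.41 ± 0.54 (adjusted p = 0.00179). In LP PIC it averaged 55.0 CPM (0.08 ± 0.52, adjusted p = 0.917). Wfdc18 was rare, at 1.10 CPM in LP 3M PIC, 0.491 CPM in LP 3M, 0.115 CPM in LP PIC and 0.0895 CPM in LP, and rose in both 3M formulations (3.71 ± 0.74, adjusted p = 2.30e-04, and 2.52 ± 0.78, adjusted p = 0.0154). The call for LP 3M was lost without mouse 1 or 4. Wfdc21, too low to be tested, averaged 1.42 CPM in LP 3M PIC and 0.229 CPM in LP 3M and was at 0 counts in every LP PIC and LP library.

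**Figure D5:**
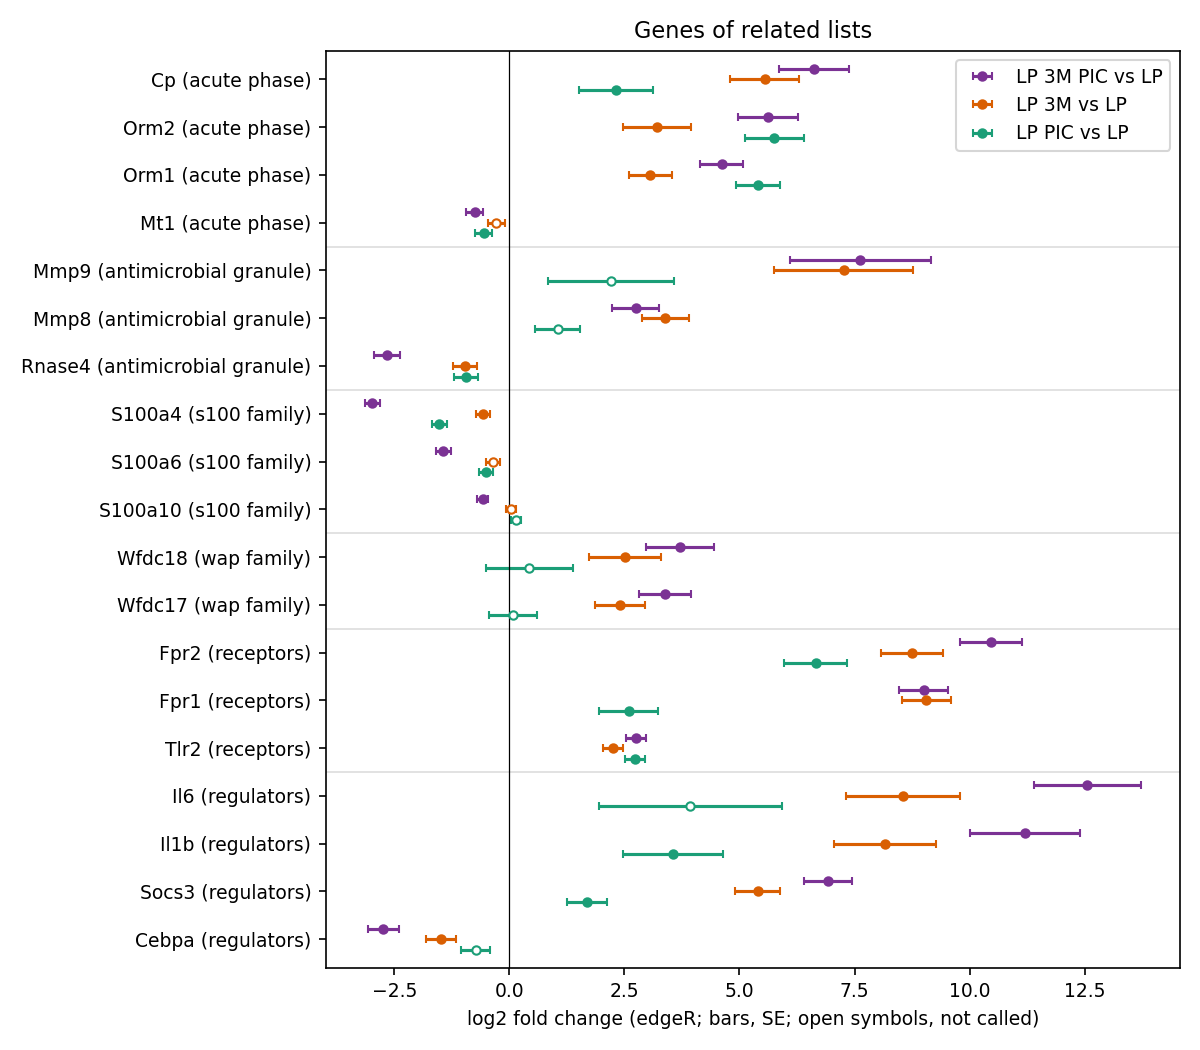
Log2 fold changes against LP of the named genes of the related lists. Points are edgeR estimates over 5 mice per condition, bars are SE and open symbols did not pass the adjusted p of 0.05. In LP 3M PIC the 3 S100 genes lie below 0, down to −2.97 for S100a4, while Il6 reaches 12.56 in LP 3M PIC and Orm1 and Orm2 have their highest estimates in LP PIC.

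Of 13 genes for receptors and handling partners of these proteins 11 were tested, with 4 higher and 4 lower in LP 3M PIC than in LP, 4 higher and 2 lower in LP 3M, and 3 higher and 4 lower in LP PIC (medians −0.11, −0.10 and 0.16). In LP 3M PIC these counts lay near the 31.7% higher and 30.6% lower over all genes. Fpr2, a formyl peptide receptor at which serum amyloid A acts as a ligand, rose to 226 CPM in LP 3M PIC (107 to 337), 69.2 CPM in LP 3M (49.7 to 96.7) and 16.8 CPM in LP PIC (4.67 to 33.5), against 0.160 CPM in LP. The changes were 10.46 ± 0.67 (adjusted p = 4.60e-10), 8.75 ± 0.67 (adjusted p = 1.50e-08) and 6.66 ± 0.68 (adjusted p = 3.29e-07). Its relative Fpr1 rose to 136.5 CPM in LP 3M PIC, 144 CPM in LP 3M and 1.67 CPM in LP PIC, against 0.263 CPM in LP, by 9.0 ± 0.52 (adjusted p = 1.39e-10), 9.06 ± 0.53 (adjusted p = 6.39e-10) and 2.60 ± 0.64 (adjusted p = 0.00273, and 2.39e-06 to 0.174 over the alternatives, the highest in limma-voom). Tlr2, a bacterial lipoprotein receptor that also responds to serum amyloid A, rose to 516.5 CPM in LP 3M PIC, 364 CPM in LP 3M and 532 CPM in LP PIC, against 82.0 CPM in LP, by 2.75 ± 0.22 (adjusted p = 4.28e-09), 2.25 ± 0.21 (adjusted p = 2.35e-07) and 2.73 ± 0.22 (adjusted p = 1.33e-08). Tlr4, at which mouse S100a8 acts, averaged 49.1, 46.6, 64.8 and 57.3 CPM in LP 3M PIC, LP 3M, LP PIC and LP and was not called against LP. Cd163, which takes up haptoglobin bound to haemoglobin, was rare at 0.377, 0.702, 0.0601 and 0.476 CPM in the same order and fell in LP PIC (−2.97 ± 0.73, adjusted p = 0.00256). Lrp1, which takes up the haem carrier haemopexin, fell to 614 CPM in LP 3M PIC, 1654 CPM in LP 3M and 1022 CPM in LP PIC, against 2938 CPM in LP (adjusted p = 4.22e-09, 0.00198 and 9.05e-07). Tlr4 and Cd163, as partners of members, and Saa1, Stfa3 and Wfdc21, as family neighbours, were added after their values were seen. So was Lrp1, which lies outside the rule for related genes given below, since haemopexin is not a member.

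Of 22 genes for cytokines and factors that regulate acute-phase genes 21 were tested, with 17 higher and 3 lower in LP 3M PIC than in LP, 14 higher and 4 lower in LP 3M, and 11 higher and 1 lower in LP PIC (medians 1.21, 1.08 and 0.48). Over all genes the shares were 31.7% higher and 30.6% lower in LP 3M PIC, 20.0% and 19.5% in LP 3M, and 22.7% and 22.7% in LP PIC. In this list too, a gene low in LP, such as Il6, passed the filter only where another condition was high. Il6 rose to 252 CPM in LP 3M PIC (72.1 to 351) and 15.6 CPM in LP 3M (0.436 to 36.9), against 0.0349 CPM in LP, by 12.56 ± 1.16 (adjusted p = 3.79e-08) and 8.55 ± 1.25 (adjusted p = 3.55e-05, and 4.01e-15 to 0.0971 over the alternatives, the highest in limma-voom). In LP PIC it averaged 0.653 CPM (adjusted p = 0.117, 0.0268 with the mouse as a block, and 4.74e-04 to 0.448 over the alternatives). Il1b rose to 1011 CPM in LP 3M PIC (119 to 1994), 122.5 CPM in LP 3M (3.58 to 310) and 5.31 CPM in LP PIC (1.67 to 8.59), against 0.456 CPM in LP, by 11.20 ± 1.20 (adjusted p = 2.35e-07), 8.16 ± 1.11 (adjusted p = 1.72e-05) and 3.55 ± 1.09 (adjusted p = 0.0122). Over the alternatives the adjusted p for LP 3M ran from 1.09e-21 to 0.102 and that for LP PIC from 6.61e-05 to 0.449, the highest in limma-voom. Socs3, the feedback inhibitor of interleukin-6 signalling, rose by 6.92 ± 0.52 in LP 3M PIC (adjusted p = 3.04e-09), 5.39 ± 0.49 in LP 3M (adjusted p = 1.59e-07) and 1.69 ± 0.44 in LP PIC (adjusted p = 0.00396). Among the C/EBP factors, Cebpa fell to 26.7 CPM in LP 3M PIC and 63.7 CPM in LP 3M, against 192 CPM in LP (−2.74 ± 0.34, adjusted p = 1.42e-06, and −1.49 ± 0.32, adjusted p = 0.00138). It averaged 112 CPM in LP PIC (−0.73 ± 0.32, adjusted p = 0.0678, and over the alternatives 0.00102, with the mouse as a block, to 0.177). Cebpb and Cebpd were added after their values were seen, as factors of the motif shown above. A link from that motif to any change was not tested. Against LP, Cebpb moved opposite to Cebpa in each adjuvant formulation, and Cebpd in the 3M formulations only. Cebpe was not called against LP in any formulation. Cebpb rose by 1.21 ± 0.21 in LP 3M PIC (adjusted p = 7.65e-05), 0.82 ± 0.21 in LP 3M (adjusted p = 0.00506) and 0.84 ± 0.21 in LP PIC (adjusted p = 0.00341). Cebpd rose by 1.19 ± 0.25 in LP 3M PIC (adjusted p = 3.96e-04) and 1.82 ± 0.25 in LP 3M (adjusted p = 1.95e-05), and its change in LP PIC was −0.16 ± 0.25 (adjusted p = 0.618).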

How the data were processed

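Each of 20 tables holds raw counts of reads per gene symbol, deposited by the authors without normalization. The submitters' processing notes name STAR 2.7.11b, FastQC 0.11.1, DESeq2 1.44.0, HTSeq 0.13.5 and build GRCm38, with an annotation and a strand setting not given in the sources used here. The libraries are stranded, per the labels' protocols. Reads assigned to no gene (5.94 to 8.58%) or to several (1.14 to 1.90%) stayed out. No library was a duplicate: over 190 pairs, chi-squared per degree of freedom was at least 7.74.

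Genes were kept with filterByExpr (minimum count 10, minimum total 15), scaled by TMM (factors 0.945 to 1.07) and fitted in edgeR 4.0.16 (R 4.3.3), with 4 condition means over 20 libraries. The fits were first tested on simulated data. An SE was obtained from the log2 change and its F statistic. CPM use plain library totals. Alternatives changed the scaling, the filter or the test (limma 3.58.1, DESeq2 1.42.0), added the mouse as a block, fitted 2 conditions alone or left out a mouse or library. Positions come from GENCODE M21. Figures were drawn with matplotlib 3.10.9.

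The members, lists and tests were chosen with earlier results of these data known. The rule for related genes names, per list, the 3 called genes with the largest change in LP 3M PIC against LP at 1 CPM or more, the called gene with the largest change against the list median, and partners that a member's description needs. For each member at 10 CPM or more, the 3 best correlated genes are named (log2 CPM, prior count 2). Replicate numbers pair libraries because each number is 1 mouse: deviations from the condition means correlated at 0.137 to 0.541 within a mouse (30 pairs) and −0.404 to 0.375 between mice (120 pairs).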

Additional observations from a re-analysis of the deposited data

Results flagged for a closer look

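Within a condition, 1 library stood far from the other 4 in 3 of 36 cases examined, with a gap to its nearest neighbour above 0.71 of the range. For normally distributed values about 1 in 20 cases pass this cutoff. That rate need not hold for CPM or for counts near 0, so that the number of cases is not read against it. S100a8 in LP 3M PIC was highest in mouse 2, at 536.04 CPM, with the next library at 99.5 CPM (gap 0.82 of the range). Camp in LP was 0.179 CPM in mouse 5 and 0 in the other 4 mice. Lyz2 in LP 3M PIC was highest in mouse 5, at 9643 CPM, with the next at 6243 CPM (gap 0.737 of the range).

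For 7 of the named related genes the step from LP 3M to LP 3M PIC differed from the step from LP to LP PIC, by edgeR's test of that difference. The log2 interaction was −3.85 for Orm1 (adjusted p = 8.52e-04) and −2.23 for Tlr2 (adjusted p = 1.41e-04), and both held in every alternative setting. It was −4.95 for Fpr2 (adjusted p = 0.00209), with 1.74e-09 to 0.131 over the alternatives, the highest in limma-voom, where it was lost. It was −3.34 for Orm2 (adjusted p = 0.0205), lost without mouse 1, 2 or 4, and −2.66 for Fpr1 (adjusted p = 0.0288), lost without mouse 1, 3 or 4, without LP of mouse 2, in limma-voom and with no filter. It was −0.88 for S100a4 (adjusted p = 0.02), lost without mouse 1, 2 or 3, and −0.76 for S100a10 (adjusted p = 0.00749), lost without mouse 2 or 4.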

How the results depend on the processing

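Of 56 log2 changes of members 37 were called, 22 of them under every alternative setting, and none of the 37 changed sign. Over all tested genes, 19.5 to 31.7% were called in each direction between 2 conditions, and 3.82% higher and 4.62% lower for the interaction. The members were chosen on these levels and the alternatives refit these same data, so that these counts are a description. With no filter on low counts, the members called numbered 1 for LP 3M against LP PIC (4 with the filter) and 3 for the interaction (5 with the filter). Leaving out 1 mouse or 1 library gave 1 to 4 members called for LP 3M against LP PIC, 3 to 5 for LP 3M PIC against LP 3M (5 with all libraries) and 1 to 4 for the interaction, which had 3 without LP replicate 2. Genes called for the interaction numbered 1023, and 1656 with the mouse as a replicate block. Without 1 mouse or library they numbered 182 to 1398, with 182 without mouse 1, 291 without mouse 2 and 242 without mouse 4, and those of the related lists 5 to 11 (11 with all libraries). The cause was not tested. Among the members, the block changed no call beyond those given for Saa3, Lyz1 and Lyz2. Camp did not pass the stricter filter, so that setting gave it no value. Scaling by plain library totals moved the median change of all genes by −0.11 in LP 3M PIC, −0.11 in LP 3M and −0.04 in LP PIC against LP. The share of calls that were higher was then 40.3%, 32.1% and 43.5%, against 50.9%, 50.6% and 50% with TMM. For S100a9, the rarest member, the interval of 0.432 to 2.94 in LP 3M PIC against LP shows what depth allowed. The p-values of the main fit set a difference against the spread between libraries within conditions. They leave out that the libraries are paired by mouse, which only the setting with the mouse as a block takes in. All come from 5 mice of 1 series.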
